A study of Drosophila melanogaster with 4 samples.

Results

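The interior of chromosome arm 2L of Drosophila melanogaster, taken as the arm without its telomere-proximal 1 Mb and its centromere-proximal 2 Mb, held 2934 of the 21932 regions enriched for the heterochromatin protein Su(var)3-9 in the list that the authors made for the replicate set. A region belonged to this interior when its midpoint lay between bases 1000001 and 21011544 of the arm (FlyBase release 5), a stretch of 20.0 Mb. The same positional rule gave 682 of 6699 regions in the list of ChIP replicate 1 and 1198 of 10048 in that of replicate 2. No measured value entered the choice, and the 5 regions that the combined list names as depleted were not counted.

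Chromatin came from homogenized tissue of wild-type larvae of the third instar, strain Oregon-R (Oregon-R-modENCODE), with no treatment named in the labels, so each value is an average over the cell types of the larva. It was immunoprecipitated with Q2598, an affinity-purified rabbit antibody against residues 320 to 419 of Su(var)3-9, and sequenced. The series has 2 ChIP and 2 input libraries, and the region lists analysed here are those of the ChIP libraries and their combined list. The labels do not say that the larvae of each ChIP library were collected separately, and the spread of the replicates may therefore be technical. Each region carries a score assigned by the authors, whose scale is not named, and read depth is unknown because the lists hold no counts. Genes and sequence at the positions below were not analysed here.

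Su(var)3-9 methylates a lysine in the tail of histone H3, and the modified tail is bound by the chromodomain of HP1a, which in turn can hold Su(var)3-9 at the site. The gene was found through mutations that relieve the silencing of genes moved next to heterochromatin. Its best-known territory is the compact, repeat-rich chromatin around centromeres, whereas the middle of a large arm such as 2L is mostly euchromatin, gene-rich and less condensed. The regions described here lie outside that best-known territory.

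Enriched regions were short and scattered over the whole 2L interior in every list. They covered 6.14% of its bases in replicate 1 and 11.1% in replicate 2, a mean of 8.63% ± 3.53 (SD, n = 2), and 25.4% in the combined list. Replicate 2 had 59.9 regions per Mb and replicate 1 had 34.1, so the libraries differed by 1.76 times in number. Their region lengths were nearly the same, since the median was 1634 bp for replicate 1 and 1622 bp for replicate 2. The difference in covered share between the libraries was thus one of how many regions were listed, not of how long they were.

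Most regions stayed close to the shortest length present in their list. In replicate 1, 79.0% of the regions were at most 2 kb long and 6 reached 5 kb. In replicate 2, 73.8% were at most 2 kb and 12 reached 5 kb. The shortest measured 1302 bp for either replicate. The combined list went down to 1001 bp and had a median of 1486 bp. Long unbroken regions were therefore rare in the lists for this part of the arm. How the calling joined or split neighbouring regions is not given.

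Scores lay in a narrow range, and their medians were below those of the rest of the series, which includes the pericentric sequences. The middle 50% of the regions had scores from 0.506 to 0.673 in replicate 1, around a median of 0.589. In replicate 2 that range was 0.446 to 0.572, around a median of 0.511. All other regions of the series had a median of 0.695 in replicate 1 and 0.555 in replicate 2. Scores of at least 1 were found for 25 regions in replicate 1, 5 in replicate 2 and 8 in the combined list. Longer regions tended to score higher within each replicate list (Spearman's rho 0.38 over 682 regions and 0.46 over 1198), but hardly in the combined list (0.05 over 2934). Length and score come from the same reads of a library, so these correlations only describe the lists.

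Distances between regions followed the length of the lists. The median distance to the next region was 15374 bp in replicate 1, 7382 bp in replicate 2 and 2730 bp in the combined list. Distances under 5 kb made up 22.3% of all distances in replicate 1, 38.3% in replicate 2 and 69.1% in the combined list. In windows of 100 kb, of which 200 fit in the interior, the densest 20 windows held 26.0% of the region bases of replicate 1 and 24.7% of those of replicate 2. In the combined list the densest 20 held 18.2%. These shares and distances depend on how many regions a list has and were not set against random placement.

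Along the arm, regions were dense in the 6 Mb next to the telomere-proximal edge, in the bin from 13 to 14 Mb and in the bins from 19 to 21 Mb. The libraries differed in which single bin was the densest. From 1 to 7 Mb, each bin of 1 Mb was covered at 6.23% to 8.82% in replicate 1 and at 13.2% to 21.4% in replicate 2. Averaged over these 6 bins, coverage was 7.80% in replicate 1 and 16.5% in replicate 2. The remaining 14 bins averaged 5.43% in replicate 1 and 8.83% in replicate 2. The border of this distal segment was sharp in replicate 2, where coverage dropped from 21.4% in the bin from 6 to 7 Mb to 5.57% in the next. In replicate 1 the same step was from 8.43% to 4.82%. The bins from 19 to 21 Mb were covered at 7.81% and 9.15% in replicate 1, the latter its highest of the 20 bins, and at 15.6% and 11.4% in replicate 2, whose highest bin was the one from 6 to 7 Mb. The bin from 20 to 21 Mb includes the window from 20100001 to 20200000, covered at 36.9% in replicate 1. The windows from 20800001 to 21000000, nearest the edge, were covered at 1.43% and 3.48% in replicate 1 and held no region of replicate 2. Median scores differed little along the arm. Over the first and last 10 bins they were 0.594 and 0.581 in replicate 1, with coverages of 6.72% and 5.57%, and 0.518 and 0.504 in replicate 2, with coverages of 13.3% and 9.02%.

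**Figure D1:**
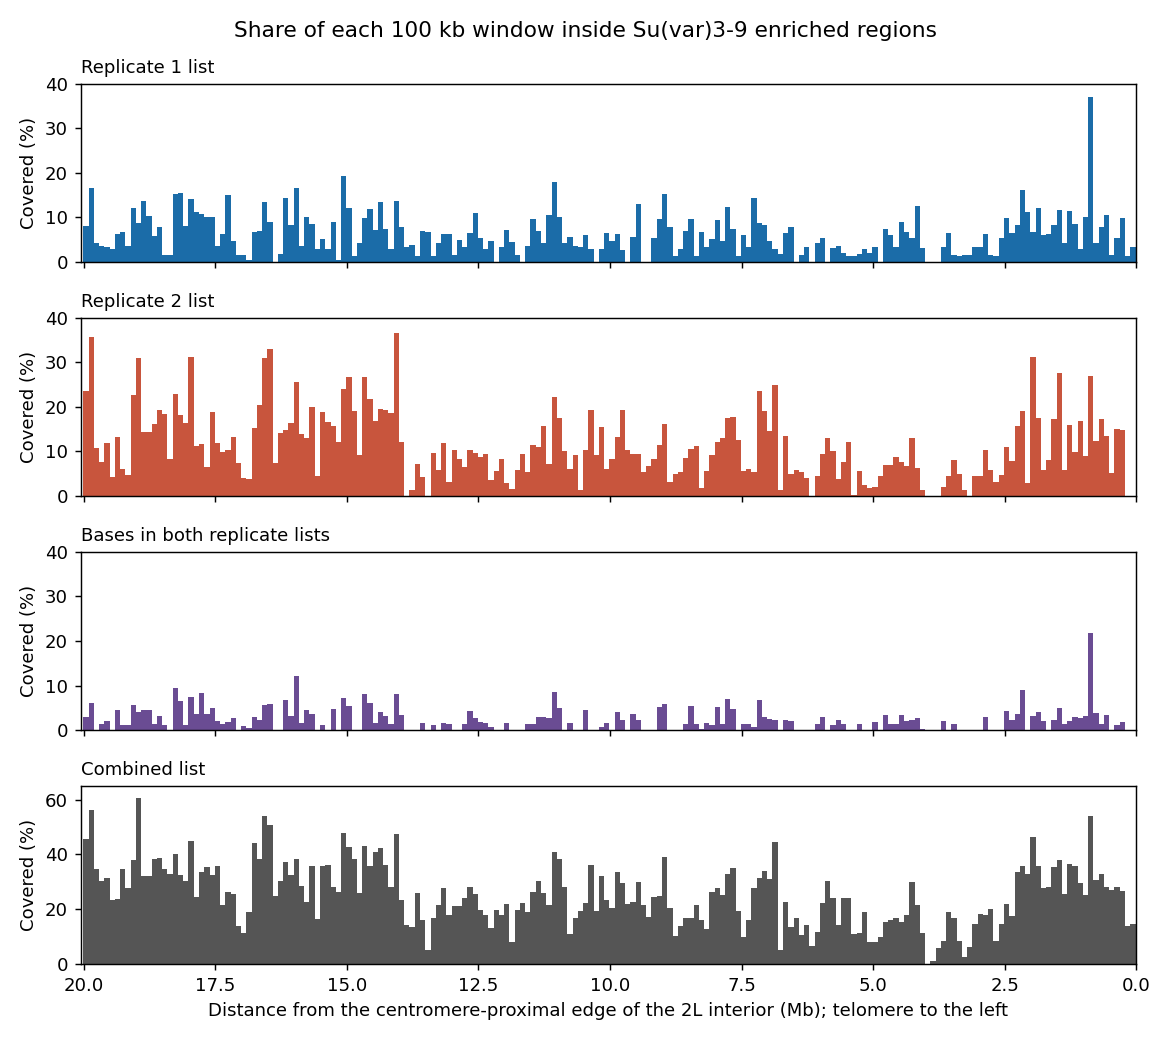
Share of the bases of each 100 kb window (vertical axis, percent) that lay inside enriched regions of replicate 1, of replicate 2, of both replicate lists at once and of the combined list, against the distance from the centromere-proximal edge of the 2L interior (horizontal axis, Mb). The bar near the right end that is tallest in replicate 1 (36.9%) and among bases in both lists (21.9%) is the window at 20.1 Mb, which has rank 9 in replicate 2 (26.9%), and the empty stretch near 4 Mb on the axis is the one at 17 Mb of the arm.

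The emptiest part of the interior lay at 17 Mb in both libraries. The bin from 17 to 18 Mb was covered at 1.94% in replicate 1 by 12 regions, at 2.52% in replicate 2 by 16 regions, and at 8.29% in the combined list by 52 regions. These were the lowest values of the 20 bins in each list. A stretch of 401 kb, from 16913475 to 17314691, held no region of either replicate list, and it was also the longest region-free distance of replicate 1. Replicate 2 had its longest distance at almost the same place, 471 kb from 16912332 to 17383089, in which replicate 1 had 2 regions. The combined list had its longest distance inside the same interval, 241 kb from 16953329 to 17194660. Further region-free stretches of both replicate lists measured 143 kb (14784694 to 14928134) and 124 kb (15925194 to 16048780), and the combined list placed 8 and 7 regions in them. Whether such positions were mappable in these libraries was not tested.

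The window from 20100001 to 20200000 held more bases called in both replicates than any other 100 kb window of the interior. Bases in both lists made up 21.9% of it, against 12.1% for the next window. Regions took up 36.9% of it in replicate 1 and 26.9% in replicate 2, a mean of 31.9% ± 7.06 (SD, n = 2), while the median window had 5.36% and 9.73%. Among the 200 windows it had rank 1 in replicate 1, but rank 9 in replicate 2 and rank 4 in the combined list, where it was covered at 54.0%. The adjoining windows were not dense, with 10.1% and 4.33% in replicate 1 and 8.90% and 12.3% in replicate 2. This window was picked for its density in these same lists, so its values are a description.

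Most of the called bases of the window lay in a group of regions at each of its ends. The larger, at the centromere-proximal end, was listed as a single region of 21098 bp in the combined list (20176669 to 20197766, score 1.16), the longest of the 2934. Replicate 1 listed a pair of regions there, of 13150 bp (20176808 to 20189957, score 1.56) and 7483 bp (20190151 to 20197633, score 1.53), which were the longest of its 682 regions. Replicate 2 broke the same stretch into 4 regions, at 20178893 to 20183035 (score 1.08), 20186004 to 20190044 (1.07), 20190717 to 20192686 (1.21) and 20192896 to 20196729 (0.913). The regions covered 97.8% of the 21098 bp in replicate 1 and 66.3% in replicate 2, and 65.9% was called in both. The third of the replicate 2 regions had the highest score of that library in the whole interior.

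The smaller group lay at the telomere-proximal end of the window. In replicate 1 it comprised regions at 20102621 to 20107863 (score 1.02) and 20108660 to 20111706 (score 1.35), preceded by one at 20100570 to 20102179 (score 0.736). Replicate 2 listed 20104287 to 20107446 (score 0.626) and 20108058 to 20111756 (score 1.13). The combined list had a single region of 8935 bp here, 20103001 to 20111935, with a score of 0.705. A further pair of regions matched in position, 20114529 to 20117562 in replicate 1 (score 0.796) and 20115542 to 20117308 in replicate 2 (score 0.581). Between these and the large block each library had regions of its own, at 20120060 to 20121681 (score 0.529) and 20150370 to 20152091 (0.927) in replicate 1, and at 20130236 to 20133179 (0.422) and 20144100 to 20145461 (0.501) in replicate 2.

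**Figure D2:**
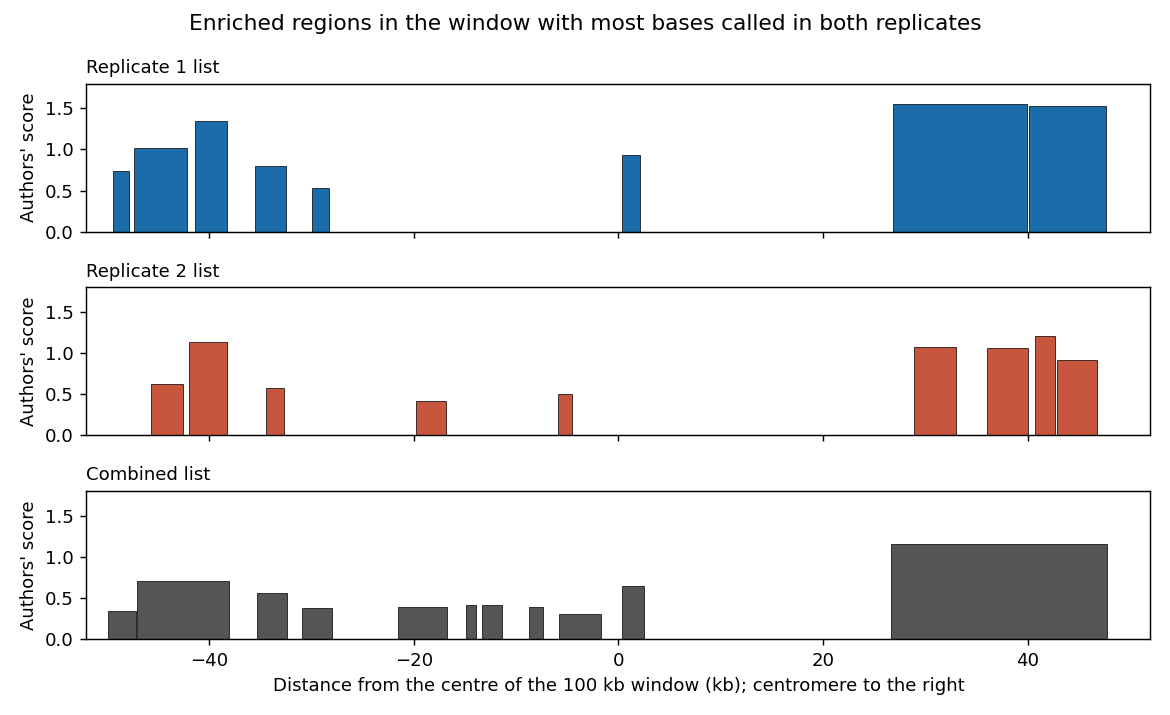
Enriched regions of the 100 kb window at 20.1 Mb in the 3 lists, drawn to scale by their distance from the window's centre (horizontal axis, kb), with the height of each box giving the authors' score (vertical axis). The block on the right is 1 region in the combined list, 2 in replicate 1 and 4 in replicate 2, and the regions with scores of at least 1 lie at the ends of the window.

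In all, 5 of the 8 replicate 1 regions of this window overlapped a replicate 2 region, and 7 of the 9 replicate 2 regions overlapped one of replicate 1. Over the interior such regions made up 43.8% in replicate 1 and 25.4% in replicate 2. The window was picked for its bases in both lists, so its higher overlap is no separate result. Regions of the window had a median score of 0.974 (replicate 1) and 0.913 (replicate 2), against 0.589 and 0.511 over the interior. In the combined list the medians were closer, 0.415 in the window and 0.377 over the interior. The window held 4 of the 5 replicate 2 regions that scored at least 1. It also held all 4 of the stretches in the interior where the regions of both replicates scored at least 1. Apart from the stretch at 20108660 to 20111706, these lie in the block at the centromere-proximal end, a single region of the combined list. Both counts therefore depend on how replicate 2 divided that block. The window held 1.17% of the replicate 1 regions and 0.751% of the replicate 2 regions. Of the bases inside regions it held 3.01% in replicate 1 and 1.21% in replicate 2. It supplied 4.90% of the bases called in both lists, the measure by which it was picked.

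The other windows with most bases in both lists were far from the first. They lay at 5000001 to 5100000 (12.1% in both, 16.6% in replicate 1, 25.7% in replicate 2), 2700001 to 2800000 (9.38%, 15.2%, 23.0%), 18800001 to 18900000 (8.92%, 16.0%, 19.1%), 9900001 to 10000000 (8.57%, 17.9%, 22.3%) and 3200001 to 3300000 (8.34%, 10.7%, 11.7%). Of the densest 20 windows of each replicate, 9 were the same and 11 were not. The window from 13700001 to 13800000 had rank 12 in replicate 1 (14.3%) and rank 153 in replicate 2 (5.40%), and that from 14100001 to 14200000 had rank 13 in replicate 2 (25.001%) and rank 154 in replicate 1 (2.83%). Replicate 2 was densest at 6900001 to 7000000, with 36.7%, a window of rank 14 in replicate 1 (13.6%), and the combined list at 2000001 to 2100000, with 60.5%, where replicate 1 had 8.73% and replicate 2 had 31.1%. Across the 200 windows the coverages of the libraries had Pearson's r of 0.56 and Spearman's rho of 0.52, and 0.56 and 0.52 without the window at 20.1 Mb, as a description of neighbouring windows that are not independent. Replicate 1 was the higher in 42 windows and replicate 2 in 154, while 65 windows had no base in both lists and 4 had no region in either.

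Fewer than 50% of the regions of either library were found in the other. In replicate 1, 299 of 682 regions (43.8%, 95% Wilson interval 40.2 to 47.6) overlapped a replicate 2 region by at least 1 bp, where all regions of the replicate 1 list gave 53.5%. In replicate 2, 304 of 1198 regions (25.4%, 23.0 to 27.9) overlapped a replicate 1 region, where all regions of that list gave 37.5%. The intervals cover counting error only, and neighbouring regions are not independent. Both shares were below those of the series, and near those of the other large-arm interiors, which were 43.2% to 46.7% for replicate 1 and 22.5% to 26.9% for replicate 2. In bases, 447 kb were called in both lists, which was 36.4% of the replicate 1 bases and 20.1% of the replicate 2 bases.

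Where regions did overlap, they matched closely in position. Of 314 overlapping pairs, 267 joined a region that had no other partner to another such region, and their centres lay a median of 315 bp apart. The overlap took up a median of 97.1% of the shorter region. Most regions without a partner had no region of the other list within 1 kb. In replicate 1, 69 of 383 (18.0%) lay within 1 kb of a replicate 2 region, and in replicate 2 it was 91 of 894 (10.2%) to replicate 1. The median distance was 4.13 kb in replicate 1 and 8.16 kb in replicate 2, where the other list was the sparser one.

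Longer regions were shared more often than shorter ones in both libraries. Of the 171 longest replicate 1 regions, from 1961 bp, 67.8% had a partner, and of the 170 shortest, up to 1422 bp, 28.8%. In replicate 2 the shares were 38.3% of the 300 longest, from 2018 bp, and 15.1% of the 299 shortest, up to 1413 bp. A longer region meets another list more easily by its length alone, and the part of this in the difference was not tested. By score the order was less regular. In replicate 1, sharing was 60.2% among the 171 highest-scoring regions, 50.0% and 29.8% in the middle groups and 35.3% among the 170 lowest. In replicate 2 it was 31.7% among the 300 highest, 21.1% and 19.3% in the middle groups and 29.4% among the 299 lowest, so that its lowest-scoring regions were shared nearly as often as its highest.

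**Figure D3:**
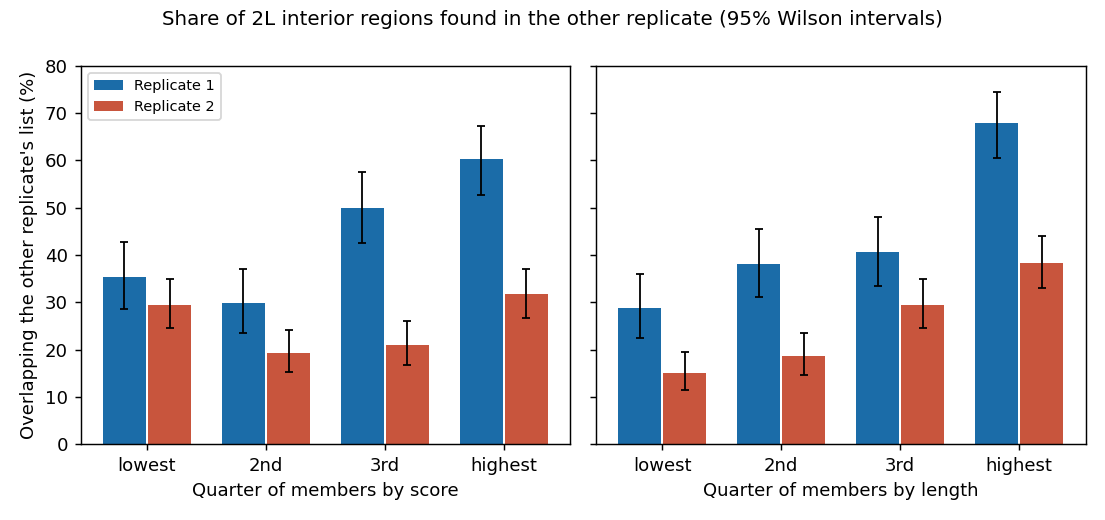
Percentage of 2L interior regions that overlapped the other replicate's list (vertical axis), for 4 groups of nearly equal size ordered by the authors' score (left) or by length (right), with 95% Wilson intervals as error bars. Sharing climbs with length in both replicates, from 28.8% to 67.8% and from 15.1% to 38.3%, while the lowest-scoring group is shared more often than the next one.

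Shared regions had the higher median score in both libraries, by a small margin in replicate 2. In replicate 1 the median was 0.624 for the 299 shared and 0.557 for the 383 other regions, a difference of 0.0669. In replicate 2 it was 0.519 for 304 and 0.510 for 894, a difference of 0.00915, which changed sign to -0.0109 when overlap had to cover 50% of both regions. Shared regions were also longer, with medians of 1847 bp against 1551 bp in replicate 1 and 1870 bp against 1550 bp in replicate 2. Whether the score difference itself differs between the libraries was not tested.

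Scores of overlapping regions went together only loosely, and less so without the window at 20.1 Mb. Across 314 overlapping stretches the scores had Pearson's r of 0.45 and Spearman's rho of 0.26. Without the 7 stretches of the window at 20.1 Mb these were 0.30 and 0.21 over 307. Stretches share their 2 libraries, so the values describe these lists only. Replicate 1 had the higher score in 246 of the 314 (78.3%), with a median ratio of 1.24 to replicate 2.

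**Figure D4:**
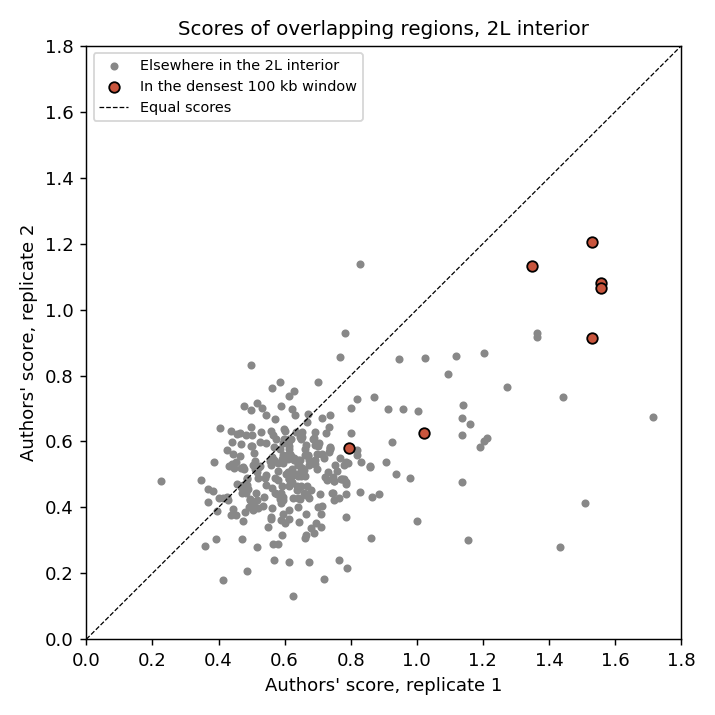
Authors' score of the replicate 1 region (horizontal axis) against that of the replicate 2 region (vertical axis) for each stretch of the 2L interior called in both lists, with the 7 stretches of the window at 20.1 Mb in red and a dashed line at equal scores. All 4 points above 1 on both axes are red, and 246 of 314 points lie below the line.

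By the lower of the replicate scores, the 4 strongest shared stretches all lay in the window at 20.1 Mb, at 20190717 to 20192686 (1.53 and 1.21), 20108660 to 20111706 (1.35 and 1.13), 20178893 to 20183035 (1.56 and 1.08) and 20186004 to 20189957 (1.56 and 1.07). The next was at 3256928 to 3257091, with 1.36 in replicate 1 and 0.929 in replicate 2. It belongs to a site at 3.25 Mb that also gave the longest stretch called without a break in both lists, 4498 bp from 3252087 to 3256584, with scores of 1.36 and 0.917. The combined list had a single region of 7602 bp there, 3251745 to 3259346, scoring 0.974. After 3 more stretches from the window at 20.1 Mb, of 4143, 3954 and 3834 bp, the longest were 3830 bp at 5030701 to 5034530 (0.701 and 0.779), 3561 bp at 12559928 to 12563488 (1.44 and 0.733), 3506 bp at 6479791 to 6483296 (1.27 and 0.764) and 3410 bp at 16514344 to 16517753 (1.20 and 0.869). Of these 4, the stretches at 12559928, 6479791 and 16514344 scored at least 1 in replicate 1 and all scored below 1 in replicate 2. The one at 5030701 lies in the window that came next after that at 20.1 Mb for bases in both lists.

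The highest-scoring and the longest regions of each library had partners in the other. The highest score of replicate 1 in the interior, 1.72, belonged to a region of 2484 bp at 6966539 to 6969022, and those of 1.51 and 1.44 to regions at 18858288 to 18860432 and 12559928 to 12563694. Their partners in replicate 2 scored 0.673, 0.412 and 0.733. The top 10% of interior regions by score lay above 0.639 in replicate 2 and above 0.780 in replicate 1. The partners at 0.673 and 0.733 were thus high within their own list. In replicate 2 the score of 1.14, next below its highest, lay at 18812191 to 18814929, and the partner in replicate 1 scored 0.829. The longest regions of replicate 2 were 9152 bp at 4480110 to 4489261 and 7769 bp at 4496007 to 4503775, with scores of 0.597 and 0.575. They flank or fall within the second longest region of the combined list, 17068 bp at 4489285 to 4506352, which scored 0.427, and neither place was among the 5 longest regions of replicate 1. After the pair at 20.1 Mb, the longest of replicate 1 were 6989 bp at 11541352 to 11548340 (score 0.767), 5319 bp at 12003083 to 12008401 (0.831) and 5289 bp at 3251803 to 3257091 (1.36). The next longest of replicate 2 were 7298 bp at 16780173 to 16787470 (score 0.730), 6885 bp at 6415155 to 6422039 (0.645) and 5818 bp at 5030572 to 5036389 (0.779). Each of these 6 regions contains a stretch called in both lists, which for the one at 12003083 is its last 7 bp.

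The combined list held many regions that neither library listed alone. Of its 2934 regions in the interior, 297 (10.1%, 95% Wilson interval 9.08 to 11.3) overlapped both replicate lists, against 15.6% over the whole combined list. Another 340 (11.6%) met replicate 1 alone and 858 (29.2%) replicate 2 alone. The remaining 1439 (49.0%, 47.2 to 50.9) met neither, against 44.4% over the whole combined list. Regions in neither list were shorter, with a median of 1217 bp against 2551 bp for those in both, and their median score was 0.377 against 0.420. The combined list is built from the same libraries, so it is no separate check of them. It overlapped 633 of the 682 replicate 1 regions (92.8%) and 1167 of the 1198 replicate 2 regions (97.4%).

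The 4 highest scores of the combined list in the interior belonged to short regions that neither replicate list holds. How the combined list and its scores were formed is not given in the sources used here, and whether that step gave these scores was not tested. They lay at 16141761 to 16142780 (1020 bp, score 3.45), 1805818 to 1806836 (1019 bp, 2.04), 6363152 to 6364152 (1001 bp, 1.78) and 5176903 to 5178020 (1118 bp, 1.43). The nearest replicate 1 region was 71.6, 27.8, 1.32 and 6.97 kb away and the nearest replicate 2 region 22.9, 28.3, 0.527 and 16.6 kb away, in the same order. The 4 other combined regions that scored at least 1 overlapped both replicate lists, and the block at 20.1 Mb was the highest of them. Such regions were not limited to 2L, where 4 of 8 combined regions scoring at least 1 met neither list. In the X interior it was 7 of 12, on 2R 11 of 16, on 3L 4 of 9 and on 3R 9 of 16. Among combined regions of all scores, 49.0% in the 2L interior and 44.4% in the whole list met neither. Meeting neither list was thus common among combined regions, and a difference at high scores was not tested.

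Among the interiors of the 5 large arms, bounded by the same distances from tip and base, that of 2L had the lowest mean coverage, although X was lower in replicate 1. The means were 8.63% ± 3.53 (SD, n = 2) on 2L, 9.25% ± 3.73 on 3L, 9.26% ± 4.71 on X, 10.7% ± 4.24 on 3R and 12.3% ± 6.06 on 2R. The SDs hold the difference between libraries that all arms share, so values within a library are given beside them. In replicate 1 coverage was 5.93% on X, 6.14% on 2L, 6.61% on 3L, 7.75% on 3R and 8.00% on 2R. In replicate 2 it was 11.1% on 2L, 11.9% on 3L, 12.6% on X, 13.7% on 3R and 16.6% on 2R. In both libraries 2L was thus below 3L, 3R and 2R. By bases in both lists X was the lowest, at 2.01%, followed by 2L at 2.23%, 3L at 2.26%, 3R at 2.80% and 2R at 2.91%. Against the mean of the other 4 interiors, 2L was lower by 0.935 percentage points in replicate 1 and by 2.57 in replicate 2, a mean of -1.75 ± 1.15 (SD, n = 2). With 2 libraries an exact two-sided sign-flip test cannot give a p below 0.5, so none was run. Median scores on 2L, 0.589 and 0.511, were close to those of 2R (0.590 and 0.519), 3L (0.590 and 0.516) and 3R (0.592 and 0.515), and those of X were 0.694 and 0.614. The densest window of 2L, at 21.9% in both lists, stood above the densest of the other interiors, 13.1% on 3L, 12.8% on 2R, 12.2% on X and 11.2% on 3R, a difference that was not tested.

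**Figure D5:**
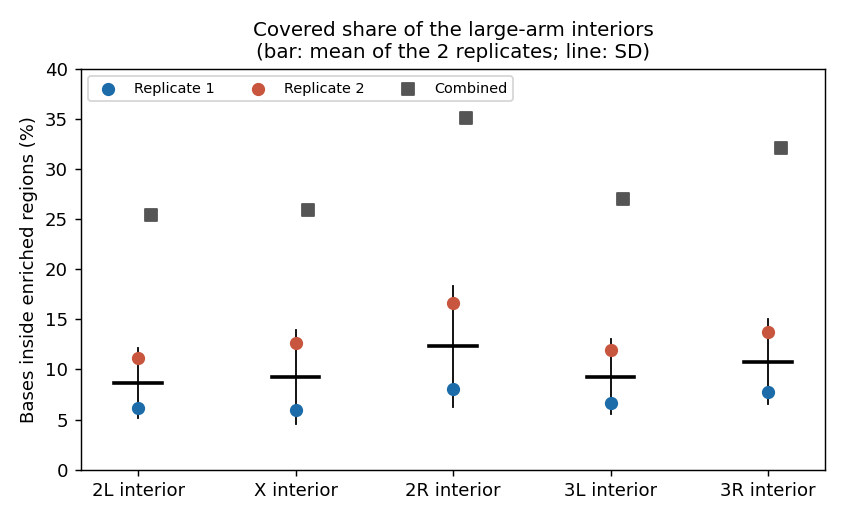
Bases inside enriched regions as a percentage of each large-arm interior (vertical axis) for replicate 1, replicate 2 and the combined list, with a bar for the mean of the replicates and a line for their SD (n = 2). 2L is the lowest in replicate 2, at 11.1%, and above X alone in replicate 1, at 6.14%, and replicate 2 is above replicate 1 on all 5 arms.

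The boundaries of the interior did not cut through any region. The regions just inside the telomere-proximal boundary scored 0.640 and 0.665 in replicate 1 and 0.812 and 0.556 in replicate 2, and those just outside 0.641 and 0.680 in replicate 1 and 0.549 and 0.737 in replicate 2. At the centromere-proximal boundary the nearest inside scored 0.562 and 0.515 in replicate 1 and 0.507 and 0.206 in replicate 2, and those outside 0.547 and 0.643 in replicate 1 and 0.455 and 0.560 in replicate 2. In the combined list the values were 0.395 and 0.488 inside against 0.406 and 0.485 outside at the first boundary, and 0.233 and 0.336 against 0.368 and 0.253 at the other.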

How the data were processed

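Per the file headers, each list gives significantly enriched regions and uses coordinates of FlyBase release 5. The score of each region is the authors' own deposited value, of unstated scale. The submitters' processing notes name Bowtie 0.12.7. How regions were called, at what threshold, with what use of reads that match several places or of the input libraries, and how the combined list was formed is not given in the sources used here.

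Members were found by their midpoints. Covered share is the number of bases inside regions divided by the length of the interval. Windows of 100 kb were counted from the first base of the arm, without the last, partial one. Overlap meant at least 1 bp, and Wilson intervals are at 95%. With lists of 1 group of 2 libraries no test was run. Overlap routines were tested on simulated intervals.

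Regions were named by rule: the 6 windows with most bases in both lists, each replicate region of the first of these, the 8 longest and 5 highest-scoring shared stretches, the 5 highest-scoring combined regions, the 5 longest regions of each replicate, the 3 longest stretches free of regions, and the 2 regions on either side of each boundary. Chosen after their values were seen were the densest windows and longest gaps of single lists, the highest-scoring replicate regions, the longest combined regions, the groups by score or length, the segment from 1 to 7 Mb and the mark at a score of 1. Members and lists were chosen with earlier results of these data known. Because the gene table supplied is for release 6 and no positions were converted between builds, genes and sequence are not reported. Software was Python 3.11.15, NumPy 2.4.6, SciPy 1.17.1, pandas 2.3.3 and matplotlib 3.10.9.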

Additional observations from a re-analysis of the deposited data

How the results depend on the processing

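Of 43 alternatives for 9 results, 22 moved the value by less than the spread between the replicates or, for shares, stayed within the 95% Wilson interval, 20 moved it further and 1 reversed its sign. The 20 include the difference between interiors as regions per Mb, whose unit is not that of the spread it was set against. Of the 22, 8 leave out a replicate, which with 2 replicates always stays within that spread, so that 14 remain. These 14 include alternatives for the score difference between shared and other regions, which was 0.0669 in replicate 1 and 0.00915 in replicate 2. The spread between these values is larger than the replicate 2 value, so its alternatives could hardly fall outside without changing sign. By their construction, lists of other lengths, stricter overlap and other window sizes give other values. Coverage of the 2L interior was 25.4% in the combined list, 4.66% in the top 50% by score, and 6.14% to 11.1% with either replicate left out. Requiring 50% of both regions lowered sharing to 31.2% and 17.8%, and 50% of the member to 36.8% and 19.6%, in replicates 1 and 2. With both lists cut to their top 50% by score, sharing was 33.1% and 17.4%. With both cut to their longest 50%, it was 38.4% and 21.1%. These cuts also shorten the list to be overlapped, so the lower shares do not describe how often high-scoring or long regions were shared. The score difference of replicate 2 turned to -0.0109 with 50% of both regions required; the cause was not tested. Combined regions in both lists were 6.92% with 50% of the member required. With the combined list alone cut, they were 14.4% in its top 50% by score and 19.6% in its longest 50%. The densest 10% of windows held 29.5% of the bases in windows of 50 kb, 21.8% in windows of 200 kb, 18.2% in the combined list, and 24.7% to 26.0% with a replicate left out. The densest window, chosen by bases in both lists, included bases 20150001 to 20200000 at each window size and grid. Its mean was 20.7% in windows of 200 kb and 24.2% with the grid moved by 50 kb. With a replicate left out, the same 100 kb window was kept, and the remaining library covered 26.9% or 36.9% of it. The window was not chosen anew there, and replicate 2 alone was densest at 6900001 to 7000000, with 36.7%. The difference from the other interiors was -4.59 points in the combined list, -8.95 as regions per Mb and -2.57 to -0.935 with a replicate left out. No paired analysis was possible because no groups of samples were compared; the arms were compared within each library. Read depth is unknown, which limits what a region missing from 1 list can show.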

Other observations

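The combined list names 1 depleted region in the 2L interior, at 10755624 to 10756887 (1264 bp), with a score of -0.00882. No region of either replicate list overlapped it.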
